A study of Danio rerio with 3 samples.

Results

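The heart genes examined here were 10 genes of the beating heart of the zebrafish embryo, taken from the gene table by name: the contractile genes myl7, vmhc, myh6, tnnt2a and tnnc1a and the regulators nkx2.5, tbx5a, tbx20, gata4 and hand2. Of 32520 genes in the table, 9 carried one of these names. The name vmhc did not appear, and the RefSeq annotation of GRCz12tu lists vmhc as a synonym of myh7, so the row named myh7 was used for it, which makes 10 members. RNA of whole embryos of the Tubingen strain was sequenced at 36 hpf (hours post fertilization) in 3 libraries, 1 for each genotype: setd2-/- (homozygous), setd2+/- (heterozygous) and wild type (wild-type). setd2 encodes the methyltransferase that places the H3K36me3 mark on transcribed genes. The paper describes the embryos as littermates and uses the exon frame-shift line E3fs1 by default, while the labels name no line and the number of embryos in a library is not given in the sources used here. Embryos of such a litter have a mother that carries wild-type setd2. Since each genotype has 1 library, differences between them lack any replicate check, and no test was run and no p-value is given.

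The zebrafish heart at this stage is a beating, looping tube with a ventricle and an atrium, whose muscle lies around an inner endocardial layer. Its muscle cells build sarcomeres, in which myosin heavy and light chains pull on actin filaments, and the troponin complex lets calcium start each contraction. Transcription factors of the Nkx2, T-box, GATA and Hand families specify heart precursors and keep the chambers distinct, and several of them also act outside the heart, in the pectoral fin bud, the pharyngeal arches, the gut endoderm or the nervous system.

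The counts, which are reads per gene, summed to 14160325 in the library labelled homozygous, 12760683 in that labelled heterozygous and 13340950 in that labelled wild-type. They were scaled with edgeR's TMM factors of 1.002, 0.992 and 1.006 for these libraries, given as CPM (counts relative to the scaled library size), and compared as log2 ratios. A prior count of 2 was added, and 18966 genes that averaged 10 counts or more were tested. All 10 members passed this filter. The targeted gene setd2 had 2087 counts in the library labelled homozygous, 1380 in that labelled heterozygous and 1348 in that labelled wild-type. The log2 ratio between homozygous and wild-type was 0.55, so setd2 mRNA was highest in the library labelled homozygous for the mutation. The direction of every difference therefore rests on the labels. Intervals are exact 95% intervals for counting error only, and compare these libraries and not the genotypes. Reads copied by PCR are not independent molecules.

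The 10 genes covered a wide range of levels, and this range was kept in each library. Levels are compared between genes as FPKM, the deposited values scaled to exonic length and library size. Of these genes, myl7 was the highest in each library, followed by hand2, tnnc1a, tnnt2a and tbx20, and myh6 was the lowest. In the library labelled homozygous, myl7 was above 88.4% of the tested genes by FPKM and myh6 above 18.8%, and in that labelled wild-type these shares were 89.1% and 21.4%. For comparison, the fast skeletal myosin light chain gene mylpfa had 3014 FPKM in the library labelled homozygous, 3308 in that labelled heterozygous and 3059 in that labelled wild-type.

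**Figure D1:**
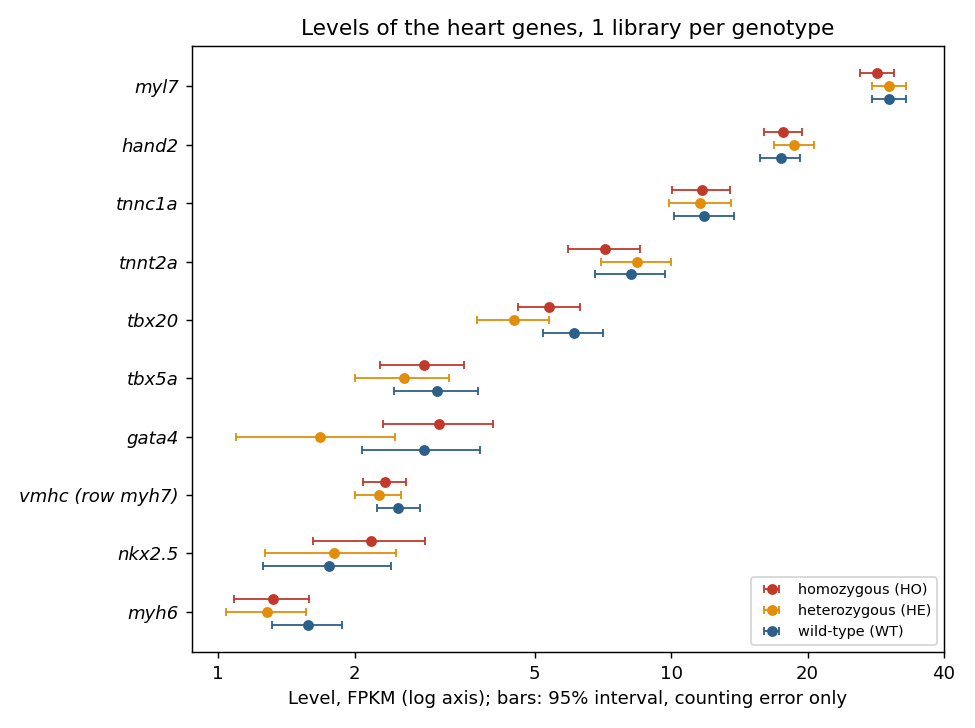
Level of each heart gene in FPKM on a log axis, in the libraries labelled homozygous, heterozygous and wild-type from top to bottom within a gene, with bars for the 95% interval of counting error. The levels span from 1.28 FPKM for myh6 to 30.3 FPKM for myl7, and the intervals of the 3 libraries overlap for each of the 10 genes.

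Among neighbours in this order, the steps from myl7 to hand2, from hand2 to tnnc1a, from tnnc1a to tnnt2a and from tnnt2a to tbx20 were larger than counting error in each library. Below tbx20 the order was less certain, and the place of vmhc also rests on the long exonic length of the row myh7. In the library labelled homozygous, gata4 and tbx5a, tbx5a and vmhc, and vmhc and nkx2.5 did not differ beyond counting error. In the library labelled heterozygous, gata4 took the last place but one, and none of the steps from tbx5a down to myh6 exceeded counting error. In the library labelled wild-type, the steps from tbx5a to gata4, from gata4 to vmhc and from nkx2.5 to myh6 did not.

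The contractile genes were examined first. The gene myl7 (ENSDARG00000019096, exonic length 1337 bases) encodes the myosin regulatory light chain of the embryonic heart muscle, and its older name cmlc2 is that of the common heart probe. It had 539 counts in the library labelled homozygous, 517 in that labelled heterozygous and 540 in that labelled wild-type, which were 28.5, 30.3 and 30.3 FPKM. The level was lowest in homozygous, and the intervals of the 3 libraries overlapped. Its log2 ratio was −0.083 (−0.26 to 0.092) in homozygous against wild-type, and 0.022 (−0.15 to 0.20) in heterozygous against wild-type. The counting interval was narrowest for this gene among the members, and a difference within it was not detectable at this depth.

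The ventricular myosin heavy chain gene vmhc, a motor protein gene of the ventricle, was read from the row myh7 (ENSDARG00000079564, exonic length 9980 bases). The annotation gives this gene the synonym smyhc3 as well, a name of a slow muscle myosin. Its next protein-coding gene is myh7l, whose synonym is vmhcl. Reads of such similar genes can be split between them, so this row is uncertain as a measure of vmhc alone. It had 329 counts (2.33 FPKM) in the library labelled homozygous, 288 counts (2.26 FPKM) in that labelled heterozygous and 333 counts (2.5 FPKM) in that labelled wild-type. These levels were close, with a log2 ratio of −0.097 (−0.32 to 0.13) in homozygous against wild-type and of −0.12 (−0.36 to 0.11) in heterozygous against wild-type. The last of these was 0.0037 with the length trend removed.

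The atrial myosin heavy chain gene myh6 (ENSDARG00000090637, exonic length 5935 bases) had 111 counts (1.32 FPKM) in the library labelled homozygous, 97 counts (1.28 FPKM) in that labelled heterozygous and 125 counts (1.58 FPKM) in that labelled wild-type. The level was lowest in heterozygous and highest in wild-type, and the intervals of the 3 libraries overlapped. The log2 ratio was −0.25 (−0.63 to 0.13) in homozygous against wild-type and −0.28 (−0.68 to 0.11) in heterozygous against wild-type.

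The gene tnnt2a (ENSDARG00000020610, exonic length 1176 bases) encodes cardiac troponin T, which anchors the troponin complex to the thin filament and without which the zebrafish heart stays silent. Its counts were 119 (7.15 FPKM) in the library labelled homozygous, 126 (8.40 FPKM) in that labelled heterozygous and 128 (8.16 FPKM) in that labelled wild-type. The lowest value was in homozygous, with a log2 ratio of −0.18 (−0.56 to 0.19) to wild-type and −0.24 (−0.62 to 0.13) to heterozygous, both within counting error.

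The calcium-binding subunit of the same complex, cardiac troponin C, is encoded by tnnc1a (ENSDARG00000011400, exonic length 1089 bases). It had 180 counts (11.7 FPKM) in the library labelled homozygous, 161 counts (11.6 FPKM) in that labelled heterozygous and 172 counts (11.8 FPKM) in that labelled wild-type. The levels were close, with a log2 ratio in homozygous against wild-type of −0.014 (−0.32 to 0.30), or 0.049 once a trend over gene length was taken out.

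As a group, the 5 contractile genes had 1278 counts in the library labelled homozygous, 1189 in that labelled heterozygous and 1298 in that labelled wild-type. Relative to the unscaled totals this was 90.3 CPM (85.4 to 95.3) in homozygous, 93.2 CPM (88.0 to 98.6) in heterozygous and 97.3 CPM (92.1 to 103) in wild-type, in exact Clopper-Pearson intervals. The 5 genes were each below 0 on the log2 scale in homozygous against wild-type, except tnnc1a with the length trend removed, at 0.049. Their median was −0.097, and the log2 ratio of their summed counts was −0.10 (−0.22 to 0.010), just within counting error. The median of all tested genes was −0.0028. In heterozygous against wild-type the median of the 5 genes was −0.0100, and in homozygous against heterozygous it was −0.0044. In whole embryos, fewer heart muscle cells and less RNA per cell cannot be told apart.

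Apart from hand2, the regulators had at most 173 counts in a library, and their intervals were wide. The gene nkx2.5 (ENSDARG00000018004, exonic length 1657 bases) encodes a homeodomain factor that keeps ventricular and atrial identity. It had 51 counts (2.17 FPKM) in the library labelled homozygous, 38 counts (1.80 FPKM) in that labelled heterozygous and 39 counts (1.76 FPKM) in that labelled wild-type. Its log2 ratio of 0.29 in homozygous against wild-type was the largest positive one among the members in that comparison, but its interval ran from −0.32 to 0.95.

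The T-box gene tbx5a (ENSDARG00000024894, exonic length 2167 bases) is needed for the heart and for the pectoral fin bud. It had 87 counts (2.84 FPKM) in the library labelled homozygous, 71 counts (2.57 FPKM) in that labelled heterozygous and 88 counts (3.04 FPKM) in that labelled wild-type. The homozygous and wild-type values were close, with a log2 ratio of −0.094 (−0.54 to 0.35), and the heterozygous value was the lowest, at −0.22 (−0.70 to 0.24) to wild-type.

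A second T-box gene, tbx20 (ENSDARG00000005150, exonic length 2126 bases), acts in the heart and is also expressed in hindbrain motor neurons. It had 162 counts (5.38 FPKM) in the library labelled homozygous, 122 counts (4.50 FPKM) in that labelled heterozygous and 173 counts (6.10 FPKM) in that labelled wild-type. The heterozygous value was the lowest, but the log2 ratio of homozygous to heterozygous, 0.24 (−0.10 to 0.59), was within counting error. The log2 ratio in heterozygous against wild-type was −0.41, and its interval of −0.76 to −0.076 did not reach 0, while the ratio in homozygous against wild-type, −0.17 (−0.49 to 0.14), was within counting error. In the GRCz12tu annotation tbx20 is the only one of the members on the chromosome that carries setd2, and whether this bears on its level was not tested.

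The zinc finger factor gene gata4 (ENSDARG00000098952, exonic length 1214 bases) acts in heart precursors and in the gut endoderm. It had 53 counts (3.08 FPKM) in the library labelled homozygous, 26 counts (1.68 FPKM) in that labelled heterozygous and 46 counts (2.84 FPKM) in that labelled wild-type. The homozygous and wild-type libraries were close, with a log2 ratio of 0.12 (−0.47 to 0.73), and the heterozygous library was lower than both. Its log2 ratio was −0.70 (−1.49 to −0.014) in heterozygous against wild-type, and 0.82 (0.16 to 1.60) in homozygous against heterozygous. These comparisons share the heterozygous library and rest on the same 26 counts, and with upper-quartile scaling the interval between heterozygous and wild-type reached 0.

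The bHLH factor gene hand2 (ENSDARG00000008305, exonic length 1641 bases) is needed to form the heart muscle and is also active in the pharyngeal arches and the pectoral fin bud. It was the most abundant regulator, with 411 counts (17.7 FPKM) in the library labelled homozygous, 391 counts (18.7 FPKM) in that labelled heterozygous and 382 counts (17.5 FPKM) in that labelled wild-type. The levels were close, with a log2 ratio of 0.025 (−0.18 to 0.23) in homozygous against wild-type and 0.12 (−0.088 to 0.33) in heterozygous against wild-type.

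The 5 regulators together had 764 counts in the library labelled homozygous, 648 in that labelled heterozygous and 728 in that labelled wild-type. This was 54.0 CPM of the unscaled total (50.2 to 57.9) in homozygous, 50.8 CPM (46.9 to 54.8) in heterozygous and 54.6 CPM (50.7 to 58.7) in wild-type, intervals that overlap. Their median log2 ratio was 0.025 in homozygous against wild-type, −0.22 in heterozygous against wild-type and 0.24 in homozygous against heterozygous. With a mean of at least 100 counts, which keeps only tbx20 and hand2 of them, these medians were −0.082, −0.16 and 0.078.

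**Figure D2:**
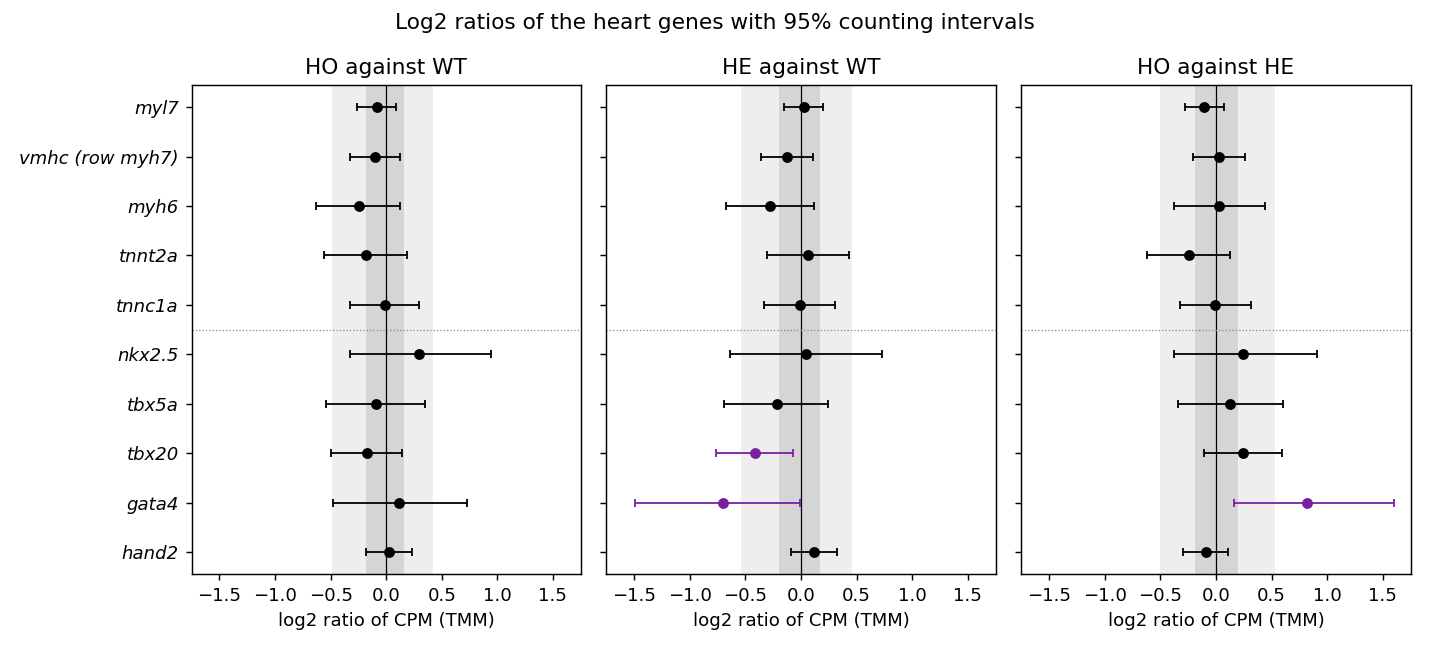
Log2 ratio of each heart gene in the 3 comparisons, with bars for the 95% counting interval, contractile genes above the dotted line and regulators below it. The dark and light bands hold the middle 50% and 90% of the 10543 tested genes whose mean count lies in the range of the members; tbx20 and gata4, in purple, are the genes whose interval does not reach 0.

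The number of members beyond counting error was then set beside that of all tested genes. In homozygous against wild-type, 0 of the 10 members were higher and 0 lower beyond counting error, where 12.0% of all tested genes were higher and 11.5% lower. None of the members had an absolute log2 ratio of at least 0.5, against 11.8% of all tested genes. All tested genes include many with fewer reads than any member. Of the 10543 tested genes whose mean count lies in the range of the members, 7.4% were past 0.5 in this comparison. Of the same genes 19.8% were beyond counting error in either direction. In heterozygous against wild-type, 0 members were higher (12.5% of all tested genes) and 2 were lower (12.8%), namely tbx20 and gata4, and 1 member, gata4, was past 0.5 (13.7%). In homozygous against heterozygous, 1 member, gata4, was higher (14.3%) and 0 were lower (14.4%), and gata4 was also past 0.5 (14.4%). A count of 1 or 2 of 10 is near the share of all tested genes, and 0 of 10 is not far from such shares for so few genes. None of these counts is a result about the members. The median log2 ratio of all 10 members was −0.088 in homozygous against wild-type, −0.067 in heterozygous against wild-type and 0.027 in homozygous against heterozygous.

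**Figure D3:**
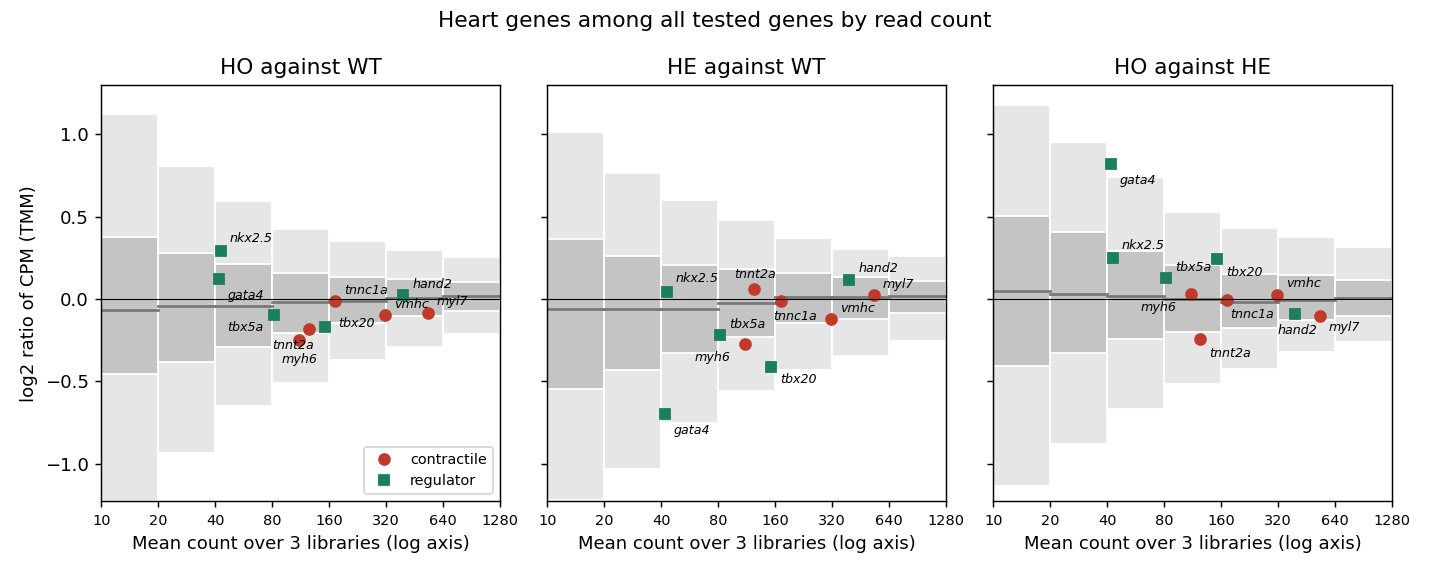
Log2 ratio of each heart gene against its mean count over the 3 libraries on a log axis, for each comparison. Grey boxes hold the middle 50% (dark) and 90% (light) of tested genes in each range of counts, with a line at their median. The spread widens towards low counts, where nkx2.5 and gata4 lie. In homozygous against heterozygous gata4 passes the light box of its range of counts, near the lower edge of that range. It lies within the limits of the light box for the next lower counts.

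Genes of few reads varied more between libraries in general. Among the 2396 tested genes with mean counts of 40 to 80, the range of nkx2.5 and gata4, the middle 90% of log2 ratios ran from −0.75 to 0.60 in heterozygous against wild-type, and gata4 at −0.70 lay inside it. In homozygous against heterozygous this range was −0.67 to 0.74, and gata4 at 0.82 lay outside it. The mean count of gata4, 41.7, is close to the lower edge of 40. Among genes with mean counts of 20 to 40 the middle 90% ran from −0.88 to 0.95 in that comparison, which holds 0.82. The place of gata4 outside the range thus depends on where the ranges of counts are cut. The 2885 genes with mean counts of 80 to 160 had a range of −0.56 to 0.48 between heterozygous and wild-type, and tbx20 at −0.41 lay inside it.

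Ratios between genes of the same library do not depend on the scaling between libraries. Per exonic length, vmhc read from the row myh7 was 1.76-fold above myh6 in the library labelled homozygous (1.42 to 2.21), 1.77-fold in that labelled heterozygous (1.40 to 2.25) and 1.58-fold in that labelled wild-type (1.29 to 1.96). The row myh7 was thus above myh6 beyond counting error in each library, by a ratio whose intervals overlapped. The size of this ratio rests on exonic lengths of 9980 bases for the row myh7 and 5935 bases for myh6. The neighbouring gene myh7l has 6941 bases. Whether the length of the row is that of the vmhc transcript was not tested, and the intervals leave this out. The ratio of myl7 to tnnt2a was 3.98 (3.26 to 4.90) in homozygous, 3.61 (2.97 to 4.42) in heterozygous and 3.71 (3.06 to 4.54) in wild-type. The ratio of nkx2.5 to gata4 was 0.71 (0.47 to 1.06) in homozygous, 1.07 (0.63 to 1.84) in heterozygous and 0.62 (0.39 to 0.97) in wild-type, with overlapping intervals.

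**Figure D4:**
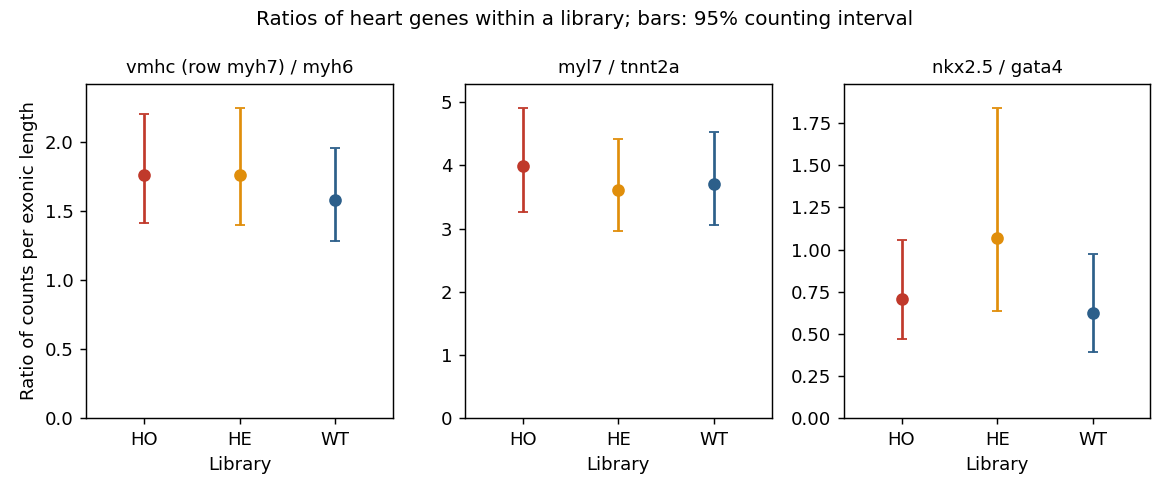
Ratio of 3 pairs of heart genes per exonic length within the libraries labelled homozygous (HO), heterozygous (HE) and wild-type (WT), with bars for the 95% counting interval and axes from 0. The ratio of vmhc to myh6 lies between 1.58 and 1.77 and that of myl7 to tnnt2a between 3.61 and 3.98, while that of nkx2.5 to gata4 is highest in heterozygous, where gata4 had 26 counts.

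The other genes of the sarcomere made up a list, of which 29 were tested. Many of them also act in skeletal muscle, which is far more abundant in the whole embryo. In homozygous against wild-type, 3 were higher and 5 lower beyond counting error (12.0% and 11.5% of all tested genes), and their median was −0.073. In heterozygous against wild-type, 4 were higher and 11 lower (12.5% and 12.8% of all tested genes), with a median of −0.16, and of −0.15 once the length trend was taken out. In homozygous against heterozygous, 13 were higher and 4 lower (14.3% and 14.4% of all tested genes), with a median of 0.11, and these comparisons share libraries. Abundant genes pass counting error at smaller differences than others, so shares of lists with many reads are not directly comparable with those of all tested genes. The most abundant was actc1a, an actin of heart and skeletal muscle. It had 6834 counts in the library labelled homozygous, 6295 in that labelled heterozygous and 6763 in that labelled wild-type. Its log2 ratio was −0.065 (−0.11 to −0.016) between homozygous and wild-type. A second row named actc1a, counted among the 29, had only 29, 46 and 32 counts in the same libraries. The slow troponin C gene tnnc1b had 2126, 2069 and 2059 counts in the same libraries, and ldb3b, a gene of the Z-disc, had 2825, 2360 and 2714.

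The sarcomere list held a heart gene whose log2 ratio of homozygous to wild-type was farther from 0 than that of any member. The gene cmlc1 encodes the essential light chain of cardiac myosin, the partner of the regulatory light chain made from myl7, and was singled out after its values were seen. It had 291 counts (25.8 FPKM) in the library labelled homozygous, 321 counts (31.6 FPKM) in that labelled heterozygous and 369 counts (34.8 FPKM) in that labelled wild-type. The level was lowest in homozygous and highest in wild-type. The log2 ratio was −0.42 (−0.65 to −0.20) in homozygous against wild-type and −0.12 (−0.34 to 0.10) in heterozygous against wild-type. For myl7 in the same muscle the first ratio was −0.083. Of the 29 tested genes of the list, 5 were lower and 3 higher beyond counting error between homozygous and wild-type. Among the higher genes were xirp1, at 0.45 (0.025 to 0.91), and the more abundant tpm4a, at 0.24 (0.15 to 0.32). The neighbouring heavy chain gene myh7l, also chosen after its values were seen, had 362 counts in the library labelled homozygous, 270 in that labelled heterozygous and 374 in that labelled wild-type, and its log2 ratio was −0.38 (−0.62 to −0.16) between heterozygous and wild-type.

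Genes of calcium handling, conduction and natriuretic peptides formed a list of 19 tested genes with a median log2 ratio of 0.082 in homozygous against wild-type, in which 1 was higher and 1 lower beyond counting error (12.0% and 11.5% of all tested genes). The higher gene was cav3, a caveolin of muscle, with 1253 counts in the library labelled homozygous, 1121 in that labelled heterozygous and 1025 in that labelled wild-type, and log2 ratios to wild-type of 0.21 in each of homozygous and heterozygous. The lower gene was nppa, a natriuretic peptide gene of working heart muscle, named after its values were seen. It had 259 counts (11.3 FPKM) in the library labelled homozygous, 232 counts (11.2 FPKM) in that labelled heterozygous and 322 counts (14.9 FPKM) in that labelled wild-type. Its log2 ratio to wild-type was −0.39 (−0.64 to −0.15) for homozygous and −0.38 (−0.64 to −0.14) for heterozygous, and these comparisons share the wild-type library. The other natriuretic peptide gene of the list, nppb, was not lower. It had 34, 48 and 32 counts in the libraries labelled homozygous, heterozygous and wild-type. Its log2 ratio to wild-type was 0.0069 (−0.73 to 0.75) for homozygous and 0.64 (−0.0049 to 1.36) for heterozygous, both within counting error. The sarcoplasmic calcium pump gene atp2a2b, with 2674, 2169 and 2395 counts in the libraries labelled homozygous, heterozygous and wild-type, had a log2 ratio of 0.079 (−0.0013 to 0.16) between homozygous and wild-type, and casq2, a calcium store gene, one of 0.023 (−0.063 to 0.11).

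The other heart regulators formed a list of 30 tested genes. In homozygous against wild-type, 6 were higher and 3 lower beyond counting error (12.0% and 11.5% of all tested genes), with a median of 0.054. In heterozygous against wild-type 4 were higher and 3 lower (12.5% and 12.8%), with a median of −0.0074 that became 0.017 with the length trend removed. The signalling gene bmp4, which acts in the heart tube and in many other tissues, had 493 counts in the library labelled homozygous, 399 in that labelled heterozygous and 327 in that labelled wild-type. It was highest in homozygous, with a log2 ratio to wild-type of 0.51 (0.31 to 0.72), against 0.37 (0.16 to 0.59) for heterozygous. Both ratios share the wild-type library, and that of homozygous to heterozygous, 0.14 (−0.054 to 0.33), was within counting error. The relatives gata5 and gata6 of gata4 were compared with it after the values were seen. The gene gata5 had 310 counts in the library labelled homozygous, 295 in that labelled heterozygous and 289 in that labelled wild-type, within counting error, and gata6 had 466, 320 and 418 in the same libraries, with a log2 ratio of −0.30 (−0.51 to −0.087) in heterozygous against wild-type and of 0.37 (0.17 to 0.59) in homozygous against heterozygous. As for gata4, the heterozygous library was the lowest for gata6, beyond counting error to both others, but not for gata5.

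Lists of other cell types were examined because the regulators are not restricted to heart muscle. Of 15 genes of endocardium and valve, 3 were higher and 3 lower beyond counting error in homozygous against wild-type, beside 12.0% and 11.5% of all tested genes, with a median of −0.060. In heterozygous against wild-type 1 was higher and 6 were lower, beside 12.5% and 12.8%, with a median of −0.22. In that list fn1b, a fibronectin gene, had 2082 counts in the library labelled homozygous, 1399 in that labelled heterozygous and 2328 in that labelled wild-type, and notch1b, a receptor gene with most of its expression outside the heart, had 4097, 2680 and 3574. The heterozygous value was the lowest for both. The 1 gene higher in heterozygous than in wild-type was klf2b, at 0.34 (0.14 to 0.55), named after its values were seen. The growth factor gene nrg1 had 67 counts in the library labelled homozygous, 81 in that labelled heterozygous and 101 in that labelled wild-type. It was 1 of the 3 lower genes between homozygous and wild-type, with a log2 ratio of −0.66 (−1.14 to −0.21). The 3 higher genes were hapln1a, at 0.19 (0.14 to 0.24), klf2b, at 0.22 (0.016 to 0.43), and notch1b, at 0.12 (0.052 to 0.18).

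The list of the epicardium, a layer that covers the heart later, held 5 genes. In homozygous against wild-type, 0 were higher and 1 lower beyond counting error (12.0% and 11.5% of all tested genes). The lower gene was aldh1a2, at −0.19 (−0.33 to −0.045), and the median of the list is the value of this gene. While 4 of the genes were below 0, tbx18 was above it, at 0.32 (−0.056 to 0.71), within counting error. For 11 genes of the pectoral fin bud, where tbx5a and hand2 act, the median was −0.054 between homozygous and wild-type and −0.097 between heterozygous and wild-type. For 14 genes of the pharyngeal arches, another site of hand2, it was −0.042 and 0.042 for the same comparisons, the second of which became −0.0012 with the length trend removed. For 8 genes of the endoderm, a site of gata4, it was 0.11 and 0.024. Of these 8 genes, 1 was higher and 0 lower beyond counting error in homozygous against wild-type (12.0% and 11.5% of all tested genes). The higher gene was foxa3, with a log2 ratio of 0.55 (0.24 to 0.87). In heterozygous against wild-type 1 was higher and 2 lower (12.5% and 12.8% of all tested genes). The endoderm list held 10 genes, and its summed level includes those that did not pass the filter. The summed level of the endoderm list was 155 CPM in the library labelled homozygous, 137 CPM in that labelled heterozygous and 143 CPM in that labelled wild-type, that of the fin bud list 980 CPM, 989 CPM and 906 CPM in the same libraries, and that of the arch list 580 CPM, 588 CPM and 558 CPM. The endoderm sum was lowest in heterozygous, where prox1a (43.1 CPM, against 53.2 CPM in wild-type) and gata6 (25.3 CPM, against 31.1 CPM) were lower beyond counting error. The forkhead gene foxa2, a marker of endoderm, was higher beyond counting error there, with 20.7 CPM in heterozygous against 16.2 CPM in wild-type, and foxa1 and foxa3 had log2 ratios of 0.25 and 0.29, within counting error. These members of the list were singled out after their values were seen. The part of these tissues in the values of the regulators was not tested.

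The list of skeletal muscle genes had a median of the same sign as the contractile heart genes in homozygous against wild-type. So did the lists of other sarcomere genes, endocardium and valve, epicardium, fin bud and arches. The lists of calcium and conduction, other heart regulators and endoderm had the other sign. The summed level of 28 skeletal muscle genes was 37763 CPM in the library labelled homozygous, 38360 CPM in that labelled heterozygous and 40279 CPM in that labelled wild-type. A second row named myhz1.1, with 14, 12 and 20 counts in the same libraries, is among them, so 27 names gave 28 genes. In this list 6 genes were higher and 15 lower beyond counting error in homozygous against wild-type (12.0% and 11.5% of all tested genes), with a median of −0.089, beside −0.097 for the 5 contractile heart genes. It had 9 higher and 13 lower in heterozygous against wild-type (12.5% and 12.8%), with a median of −0.046. In homozygous against heterozygous it had 10 higher and 13 lower (14.3% and 14.4%), with a median of −0.018. Its most abundant genes have so many reads that small differences pass counting error. The most abundant, actc1b, an actin of fast muscle, had a log2 ratio of −0.13 (−0.14 to −0.12) in homozygous against wild-type. In homozygous against heterozygous it had one of 0.14 (0.12 to 0.15). The part of skeletal muscle RNA in the values of genes that are active in both tissues was not tested.

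**Figure D5:**
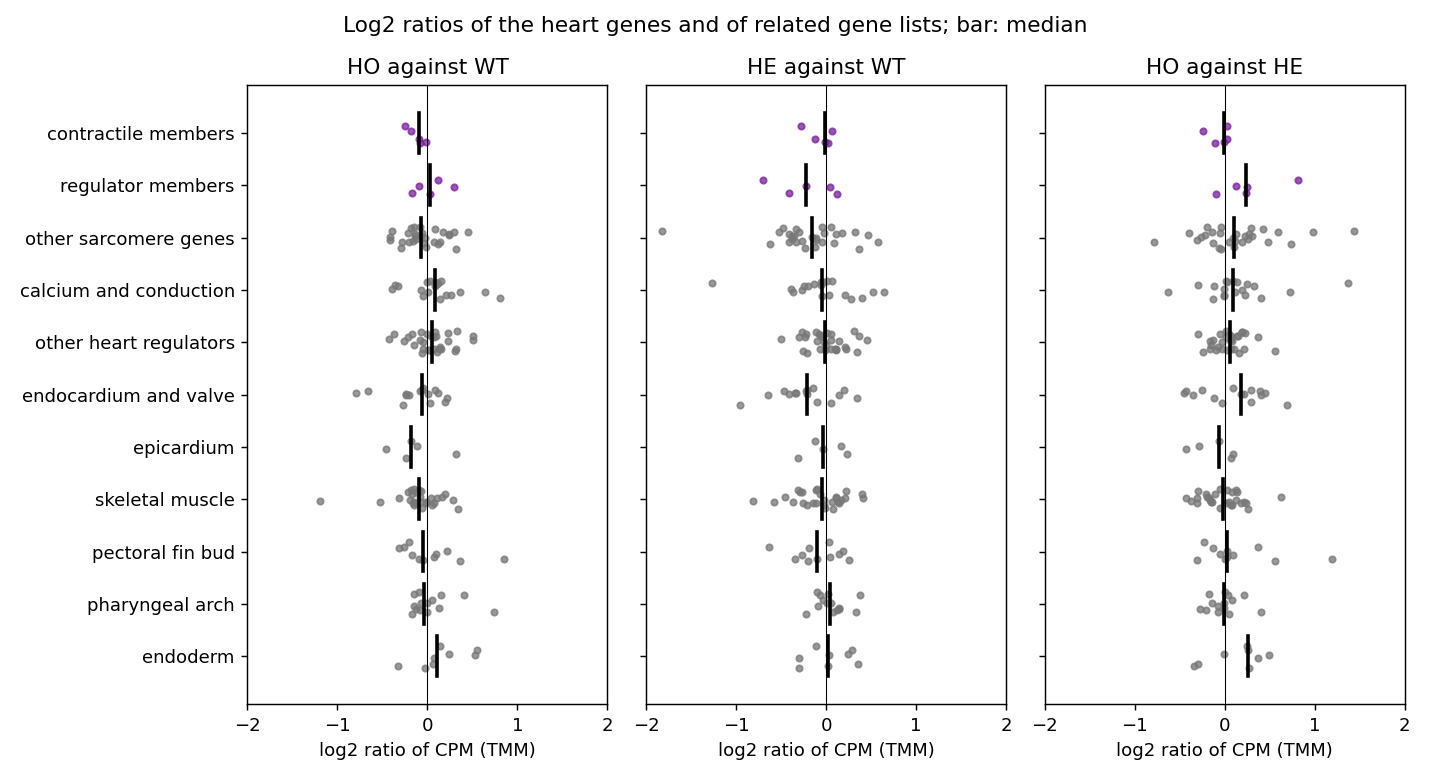
Log2 ratio of each gene in the lists of heart genes (purple) and of related gene groups (grey) in the 3 comparisons, with a black bar for the median of a list. The medians lie between −0.22 and 0.26, and genes of most lists lie on both sides of 0.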

How the data were processed

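Whole embryos at 36 hpf gave total RNA, and libraries made from it were sequenced on an Illumina instrument. The paper names a stranded mRNA kit, TopHat and GRCz10, whereas the submitters' processing notes name HISAT2 2.0.2 and GRCz11 and the labels other kits. The counting tool, annotation release and strand setting are not given in the sources used here. The deposited counts are raw reads per gene. The deposited FPKM values, for which the authors name Cufflinks, equal the count per exonic length and summed counts within 0.00500. The tables of single libraries held the same counts as the series table (0 differences), and 3 FPKM columns of those tables, 1 of them headed with another genotype, were not used.

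TMM factors and log2 CPM came from edgeR 4.0.16 (R 4.3.3). Intervals of a ratio come from the exact binomial share of 2 counts, without the prior count that enters the log2 ratio printed beside them. For genes of few reads the prior count draws the ratio towards 0. For gata4 in heterozygous against wild-type it was −0.70, and −0.73 with a prior count of 0.25. Python 3.11.15 and scipy 1.17.1 were used for the rest. The steps were run on simulated counts with counting error alone, which the intervals assume. That run cannot show how the intervals do where libraries vary in other ways. The members, gene lists and alternatives were chosen with earlier results of these data known. Named genes are the members, setd2, the 3 most abundant genes of a list and genes that averaged 50 counts or more with an absolute log2 ratio of at least 0.5 and an interval without 0 between homozygous and wild-type; not all of them are described. Alternatives were DESeq2 1.42.0 size factors, total-count and upper-quartile scaling, FPKM with a pseudocount of 1 or 0.1, a prior count of 0.25, no filter, a mean of at least 100 counts and removal of the trend over 20 bins of gene length. Leaving out the row myh7, and the length step for the other lists, were added after the values were seen. Gene sequences were not used here.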

Additional observations from a re-analysis of the deposited data

How the results depend on the processing

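The counts of members moved under 2 alternatives. With upper-quartile scaling, 1 member instead of 2 was beyond counting error in heterozygous against wild-type, because the interval of gata4 reached 0. With a mean of at least 100 counts, which leaves out gata4, nkx2.5 and tbx5a, 1 member (tbx20) was beyond counting error and 0 were past 0.5 in that comparison, and 0 and 0 in homozygous against heterozygous. All 288 log2 ratios of single members under the alternatives lay inside their counting intervals. The library factors lay between 0.983 and 1.010 under every scaling, so the scalings could move these ratios only a little. Those with the row myh7 left out are unchanged by that step. All alternatives start from the same counts, so this does not show how libraries would vary. The median of the contractile genes ranged from −0.13 to −0.086 between homozygous and wild-type, and crossed 0 in the other comparisons (−0.031 to 0.0062 for heterozygous against wild-type and −0.055 to 0.011 for homozygous against heterozygous). The median of the regulators crossed 0 only between homozygous and wild-type (−0.082 to 0.044). It ranged from −0.24 to −0.16 in heterozygous against wild-type and from 0.078 to 0.28 in homozygous against heterozygous, with the values nearest 0 at a mean of at least 100 counts. No paired analysis was possible because each genotype has 1 library, and for the same reason no library could be left out. FPKM values gave no count of members beyond counting error. Counts under about 50 limit what can be seen of gata4 and nkx2.5.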

Other observations

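Some very long or low muscle genes, picked after their values were seen, were lowest in the library labelled heterozygous, but others of the same lists were not. The titin gene ttn.2, with an exonic length of 98586 bases, had 1586 counts in the library labelled homozygous, 1010 in that labelled heterozygous and 1429 in that labelled wild-type, a log2 ratio of −0.41 (−0.53 to −0.30) between heterozygous and wild-type. The other titin gene, ttn.1, with an exonic length of 88557 bases, was also lowest in heterozygous, but not beyond counting error to wild-type. It had 1546, 1210 and 1326 counts in the same libraries, and its ratio of heterozygous to wild-type was −0.047 (−0.16 to 0.067). Its ratio of homozygous to heterozygous, 0.19 (0.079 to 0.30), was beyond counting error. The ryanodine receptor gene ryr2b, the calcium release channel of heart muscle, had 47, 15 and 41 counts in the same libraries, and tcap, a gene of the Z-disc with an exonic length of only 1190 bases, had 43, 13 and 54, a log2 ratio of −1.83 (−2.97 to −1.08) between heterozygous and wild-type. In contrast, the heavy chain gene myh7bb, with an exonic length of 6262 bases, had 228, 225 and 191 counts. Its ratio of heterozygous to wild-type was 0.32 (0.037 to 0.61). Of the 29 tested sarcomere genes, 4 were higher and 11 lower beyond counting error in that comparison (12.5% and 12.8% of all tested genes). Over all tested genes, the 4740 longest had a median of −0.047 and the 4747 shortest one of 0.027 between heterozygous and wild-type. Between homozygous and wild-type these medians were 0.036 and −0.060. The part of gene length in the values of single genes was not tested.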
